A study of Mus musculus with 371 samples.

Results

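Tox, Tox2, Eomes, Tbx21, Id2, Rbpj, Runx3, Runx2, Bhlhe40 and Zeb2 encode transcription factors of effector and exhausted T cells, and their transcripts are described here in single T cells from B16F10 melanoma, a transplantable mouse tumour. The 10 genes were chosen by name from the 23362 genes of the table, and all 10 have a row in it. Cells of 4 groups were used: KO CD8, WT CD8, KO CD4 and WT CD4. KO stands for Il27ra knockout mice and WT for wild type mice, all on the C57BL/6 strain and all bearing the tumour, and the labels give no age. Il27ra encodes a subunit of the receptor for the cytokine IL-27. RNA was read by Smart-seq2, which makes full-length cDNA from 1 cell, and values are FPKM, fragments per kilobase of transcript scaled to library size. A gene was called detected at 1 FPKM or above, and cells with fewer than 1000 detected genes were left out, which kept 86 of 90 KO CD8, 90 of 94 WT CD8, 89 of 93 KO CD4 and 85 of 94 WT CD4 cells.

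Each group carries 1 name and the number 3 in its titles, and the labels do not say whether that name stands for a mouse, several mice or a plate. Each group is therefore 1 sample with no replicate, and its source and genotype cannot be told apart. No test between groups was therefore made: SDs are over cells of 1 sample, and the exact Clopper-Pearson 95% intervals of shares cover counting error only. The sort also goes together with the last part of the titles (p1 in CD8, p2 in CD4). The protocol text names CD8 T cells for every cell, but Cd4 was found in 0 of 86 KO CD8 and 0 of 90 WT CD8 cells (up to 3.49% and 3.33%) and in 87.6% of KO CD4 and 87.1% of WT CD4 cells. Il27ra itself was at 1 FPKM or above in 53.5% of KO CD8 and 51.1% of WT CD8 cells, and in 50.6% of KO CD4 and 50.6% of WT CD4 cells. Since a value per gene does not show which exons were read, the genotype remains unchecked here, and KO below means cells labelled KO. The median number of detected genes was 1955 in KO CD8, 2148 in WT CD8, 1868 in KO CD4 and 1661 in WT CD4 cells. At least 1 of 6 transcripts of melanocytes and B16 cells was found in 97.6% to 100% of the cells of each group, at a mean summed level of 107.5 FPKM in KO CD8, 25.9 in WT CD8, 22.9 in KO CD4 and 71.4 in WT CD4 cells. Without the cells that carried, at 10 FPKM or above, 2 or more markers of 1 other cell type (these or others), 81 KO CD8, 85 WT CD8, 81 KO CD4 and 79 WT CD4 cells were left.

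As background, T-bet (Tbx21) and Eomes are related T-box factors that drive effector genes such as those of interferon gamma and perforin. TOX, an HMG-box protein, is required for the exhausted state of T cells under lasting antigen, and TOX2 is its relative. ID2 has no DNA-binding region of its own and blocks E proteins. RBPJ is the DNA-binding partner of Notch, RUNX3 and RUNX2 bind DNA together with CBFb, and RUNX3 also silences Cd4 in the CD8 lineage. BHLHE40 is a repressor of activated T cells, and ZEB2 is a zinc-finger repressor of terminal effector cells that acts downstream of T-bet. TCF-1 (Tcf7) marks naive, memory and stem-like T cells and is read here beside Tox.

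Promoter sequence was available for 8 of the 10 factors, in 17 windows (RefSeq, GRCm38.p6), and those with letters of the binding motifs of STAT, IRF or Runx factors are shown because 2 members are Runx factors themselves and the other letters belong to factors of cytokine response. The 250 bases before each start were searched on both strands, and capitals mark the match. The STAT-type letters TTCNNNGAA were found before 7.02% of all 32851 promoters and, among the factors searched, only in Zeb2, where the same bases lie before 2 of its 4 starts. The IRF-type letters GAAANNGAA were found before 7.13% of all promoters and, among the factors searched, only in Eomes. The T-box letters TCACAC, found before 12.3% of all promoters, lay before Runx2 alone among the factors searched and are not shown. The Runx-type letters TGTGGT, found before 14.05% of all promoters, lie before Runx3 (2 matches, at 1 of its 2 starts) and Runx2, and read ACCACA on the strand printed.
Zeb2, chr2:45113398-45113446, minus strand: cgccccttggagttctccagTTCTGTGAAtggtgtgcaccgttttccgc
Eomes, chr9:118478015-118478063, plus strand: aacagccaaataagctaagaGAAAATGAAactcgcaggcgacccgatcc
Runx3, chr4:135120491-135120544, plus strand: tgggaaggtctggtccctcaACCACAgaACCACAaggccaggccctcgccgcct
Runx2, chr17:44814682-44814727, minus strand: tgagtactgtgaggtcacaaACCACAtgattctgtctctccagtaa
A match is a description of the letters and not a site of binding. In the annotation (GRCm38), the genes lie at chr4:6686353-6991557 (Tox, minus strand), chr2:163203125-163324170 (Tox2, plus), chr9:118478212-118486132 (Eomes, plus), chr11:97098071-97115331 (Tbx21, minus), chr12:25093799-25097140 (Id2, minus), chr5:53466152-53657362 (Rbpj, plus), chr4:135120652-135177990 (Runx3, plus), chr17:44495987-44814797 (Runx2, minus), chr6:108660629-108666925 (Bhlhe40, plus) and chr2:44983632-45117395 (Zeb2, minus).

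The factors differed widely in how many cells carried them. Id2 had the highest mean in all 4 groups, at 4.77 ± 4.30 in KO CD8, 5.87 ± 4.28 in WT CD8, 5.68 ± 4.60 in KO CD4 and 5.12 ± 4.48 in WT CD4 cells on the log2(FPKM + 1) scale (SD over cells). Bhlhe40 was second in all 4 groups, with means of 3.08 ± 3.89 in KO CD8, 3.90 ± 4.45 in WT CD8, 4.14 ± 4.33 in KO CD4 and 3.93 ± 4.30 in WT CD4 cells. Next came Runx3 in KO CD8 (2.77 ± 2.97), WT CD8 (3.21 ± 3.24) and KO CD4 cells (1.91 ± 2.80), and Rbpj in WT CD4 cells (1.68 ± 2.79). Neighbours in these orders lay closer together than the larger of their SDs over cells. Eomes, Zeb2 and Tox2 were the lowest in all 4 groups.

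**Figure D1:**
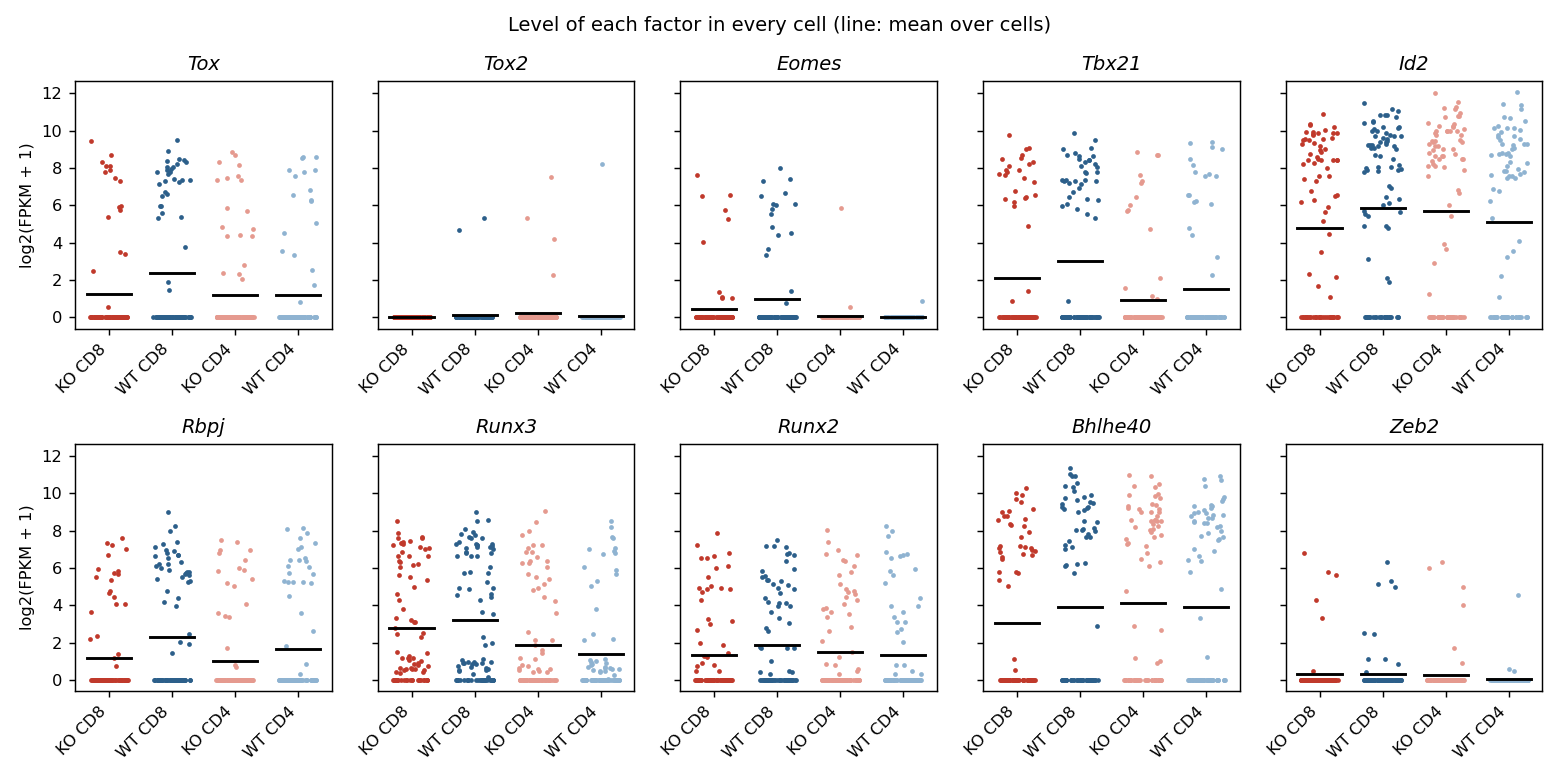
Level of each of the 10 factors in every cell (points, log2(FPKM + 1)) of the KO CD8, WT CD8, KO CD4 and WT CD4 groups, with the mean over cells as a line. Id2 and Bhlhe40 have the highest means in every group, and Tox2, Zeb2 and, in CD4 cells, Eomes are at 0 in nearly all cells.

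Tox was found in 18.6% of KO CD8 cells (95% interval 11.02% to 28.4%) and 34.4% of WT CD8 cells (24.7% to 45.2%). Where found, its level ran from 4.57 through a median of 164.6 to 703 FPKM in KO CD8 cells, and from 1.81 through 163.2 to 713 FPKM in WT CD8 cells. Levels in cells with Tox thus covered the same range in both groups, and the groups differed in the share of cells. In the CD4 sort, Tox was in 21.3% of KO and 20% of WT cells. Its relative Tox2 was in 0 of 86 KO CD8 cells (up to 3.49%), 2 WT CD8, 4 KO CD4 and 1 WT CD4 cells.

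Tbx21 was found in 29.1% of KO CD8 cells (19.8% to 39.9%) and 40% of WT CD8 cells (29.8% to 50.9%). Its level where found ran from 1.72 through a median of 207.9 to 877 FPKM in KO CD8 cells, and from 39.2 through 188.995 to 926 FPKM in WT CD8 cells. In CD4 cells it was in 15.7% of KO and 22.4% of WT cells. Eomes was much rarer, in 11.6% of KO CD8 (5.72% to 20.4%) and 17.8% of WT CD8 cells (10.5% to 27.3%). It was in 1 of 89 KO CD4 cells and in 0 of 85 WT CD4 cells (up to 3.53%). Its levels where found had a median of 26.4 FPKM in KO CD8 and 59.9 FPKM in WT CD8 cells, below those of Tbx21 in both.

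Id2 was found in 60.5% of KO CD8 cells (49.3% to 70.8%), 70% of WT CD8 (59.4% to 79.2%), 64.04% of KO CD4 and 61.2% of WT CD4 cells. Its level where found reached 1927 FPKM in KO CD8 and 2875 FPKM in WT CD8 cells, with medians of 350.99 FPKM in KO CD8 and 577 FPKM in WT CD8 cells. Rbpj was found in 24.4% of KO CD8 (15.8% to 34.9%) and 40% of WT CD8 cells (29.8% to 50.9%), and in 19.1% of KO CD4 and 28.2% of WT CD4 cells. Rbpj shares a stretch of 638 identical bases with the pseudogene Rbpj-ps3, which has no row in the table, so its level is uncertain.

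Runx3 was found in similar shares of cells in the CD8 sort, 53.5% of KO and 52.2% of WT cells, with medians where found that lay apart. At 10 FPKM or above it was in 34.9% of KO CD8 (24.9% to 45.9%) and 45.6% of WT CD8 cells (35.02% to 56.4%). Over the cells at 1 FPKM or above, its median was 56.9 FPKM in KO CD8 and 109.98 FPKM in WT CD8 cells. In CD4 cells it was in 35.96% of KO and 24.7% of WT cells. Runx2 was found in 29.1% of KO CD8 and 40% of WT CD8 cells, and in 31.5% of KO CD4 and 25.9% of WT CD4 cells. Bhlhe40 was found in 40.7% of KO CD8 and 45.6% of WT CD8 cells, with medians where found of 144.96 FPKM in KO CD8 and 512 FPKM in WT CD8 cells, and in 51.7% of KO CD4 and 48.2% of WT CD4 cells. Zeb2 was the rarest factor after Tox2 in CD8 cells, in 5.81% of KO and 8.89% of WT cells. The exons of Tox, Eomes, Runx2, Bhlhe40 and Zeb2 overlap those of antisense genes in the annotation, and without stated strand the reads of both cannot be told apart.

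**Figure D2:**
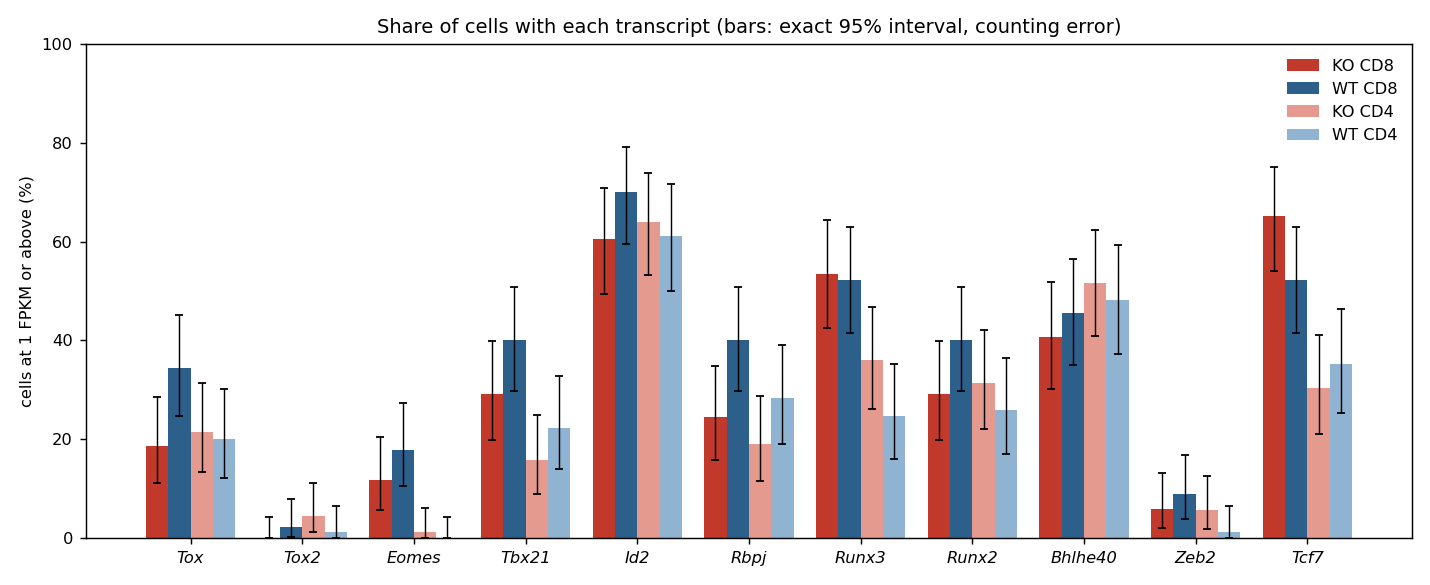
Share of cells at 1 FPKM or above for the 10 factors and Tcf7 in the KO CD8, WT CD8, KO CD4 and WT CD4 groups, with exact 95% intervals for counting error. In the CD8 sort Tox, Rbpj and Tbx21 have lower shares in KO cells and Tcf7 a higher one, and Eomes is nearly limited to the CD8 sort.

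In the CD8 sort, all 10 factors had a lower mean in KO cells than in WT cells, and Tcf7 had a higher one. The differences, KO minus WT in mean log2(FPKM + 1), were -1.15 for Tox, -1.10 for Id2, -1.09 for Rbpj, -0.91 for Tbx21, -0.83 for Bhlhe40, -0.53 for Runx2, -0.51 for Eomes, -0.44 for Runx3, -0.11 for Tox2 and -0.032 for Zeb2. The direction was not particular to the factors: 78.7% of the 4686 genes that were detected in 20% or more of KO or of WT cells had a lower mean in KO cells. Over these genes the median difference was -0.40, and over the 10 factors it was -0.68. A difference of 1 or more in size was reached by 3 factors, Tox, Id2 and Rbpj, all lower in KO cells, among the 7 that met the 20% limit (Tox2, Eomes and Zeb2 did not), with a background of 13.3% of genes lower. Tox met that limit through the WT cells alone, so its place in the count is a description. Without the cells that carried markers of other cell types, the differences were -1.17 for Tox, -1.15 for Id2 and -0.95 for Rbpj, so that 2 factors were past 1. Tcf7 differed by 1.00, and genes higher in KO cells by 1 or more made up 0.555%.

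The CD8 groups also differed in how many cells had many detected genes. Of the WT CD8 cells, 21 of 90 had 3000 or more genes at 1 FPKM or above, against 3 of 86 KO CD8 cells. This split was chosen after the values were seen. In those 21 WT cells, Id2 and Rbpj were found in 21, Bhlhe40 in 20, Tox in 19, Runx2 in 18, Tbx21 in 16, Runx3 in 14, Eomes in 7 and Zeb2 in 4 cells. Tcf7 was found in 1 of them. They carried 4 to 8 of the 10 factors each, with a median of 7, and the other 69 WT CD8 cells carried 0 to 7, with a median of 2. The 21 cells were picked for many detected genes, with a median of 3830 against 2042 in the other 69. A higher count is thus partly set by the selection. The same count over all genes was not made, so these numbers are not a trait of the factors.

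The same 21 cells also carried transcripts of killing and of division. Prf1, which encodes perforin, was in 19 cells, Gzmb, which encodes granzyme B, in 20, and the proliferation marker Mki67 in 10. At least 2 of the checkpoint receptor transcripts Pdcd1, Havcr2, Lag3 and Tigit were in 20 of them. For these transcripts too, the selection for many detected genes sets part of the count. Cd8a and Cd8b1 were in 21 of 21 and Cd4 in 0 of 21. Whether a well held more than 1 cell was not tested.

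Below 3000 detected genes, the 95% intervals of each factor's share overlapped between genotypes, as they also did over all kept CD8 cells. How many of all genes had overlapping intervals was not counted, so the overlap is a description and not a trait of the factors. Tox was in 18.1% of 83 KO CD8 cells (10.5% to 28.05%) and 17.4% of 69 WT CD8 cells (9.32% to 28.4%). Rbpj was in 22.9% of KO and 21.7% of WT cells, Id2 in 59.04% of KO and 60.9% of WT cells, and Tbx21 in 28.92% of KO and 28.99% of WT cells. Tcf7 was in 66.3% of KO and 66.7% of WT cells. In these cells the difference in mean log2(FPKM + 1), KO minus WT, was 0.12 for Tox, -0.12 for Id2, 0.029 for Rbpj, -0.068 for Tbx21 and -0.056 for Tcf7. Bhlhe40 had the largest of the 10 in size, 0.57, with 39.8% of KO and 30.4% of WT cells. Over the 10 factors the median was -0.055, and over all measured genes it was -0.045. Prf1 was in 13.3% of KO cells (6.81% to 22.5%) and 33.3% of WT cells (22.4% to 45.7%) below 3000 genes, and these intervals overlapped at their ends.

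**Figure D3:**
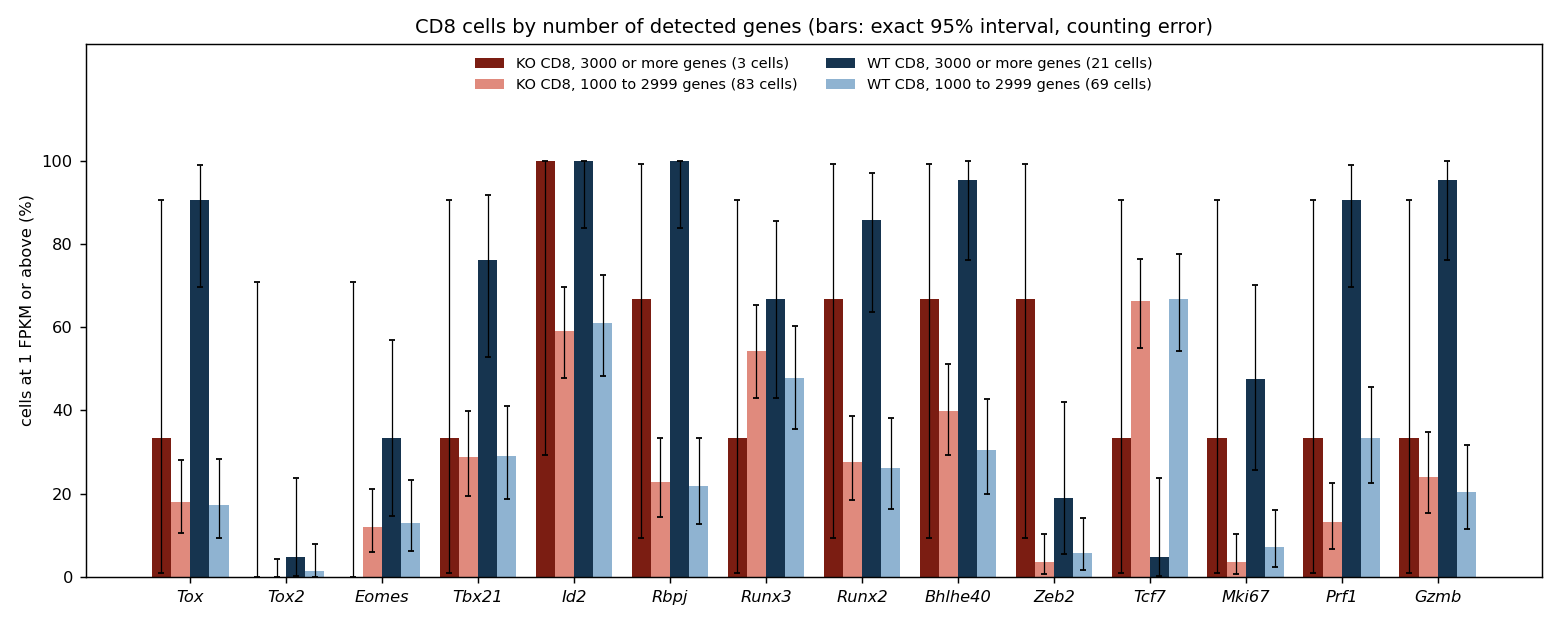
Share of CD8 cells at 1 FPKM or above for the factors, Tcf7, Mki67, Prf1 and Gzmb, in KO and WT cells with 3000 or more detected genes (3 and 21 cells) and with fewer (83 and 69 cells), with exact 95% intervals. Tox is in 90.5% of the 21 WT cells and in 18.1% of KO and 17.4% of WT cells below 3000 genes, and Tcf7 runs the other way, at 4.76%, 66.3% and 66.7%.

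Weighting cells so that both genotypes had the same spread over 5 bins of detected genes moved the CD8 differences to -0.39 for Tox, -0.25 for Rbpj, 0.078 for Id2 and 0.38 for Tcf7, though its top bin holds only those 3 KO cells. Tbx21 (-0.58), Eomes (-0.46) and Runx3 (-0.40) kept a lower mean in KO cells under the weighting, and Runx2 (0.092), Bhlhe40 (0.082) and Zeb2 (0.35) had a higher one. No factor reached 1 in size under it.

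In the CD4 sort, no factor differed by 1 or more between genotypes. The differences, KO minus WT, were -0.63 for Rbpj, -0.60 for Tbx21, 0.56 for Id2, 0.52 for Runx3, 0.21 for Bhlhe40, 0.20 for Zeb2, 0.15 for Runx2, 0.12 for Tox2, 0.062 for Eomes and -0.019 for Tox. Their median was 0.14, with 0.23 over the 3864 measured genes. Among those genes 9.91% were higher in KO cells by 1 or more and 0.983% were lower. Rbpj and Tbx21 had lower means in KO cells of both sorts. Among the 37 KO and 25 WT cells with at least 2000 detected genes, Tbx21 (-1.58), Rbpj (-1.25) and Runx3 (1.03) were past 1. The background shares above are for all kept cells and do not apply to this smaller set. Over the alternatives tried in the CD4 sort, 2.33% to 23.1% of measured genes were past 1 in size. Cells with 3000 or more genes were 9 of 89 KO and 7 of 85 WT cells here. Without them the differences were -0.60 for Rbpj, -0.43 for Tbx21 and 0.65 for Id2.

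**Figure D4:**
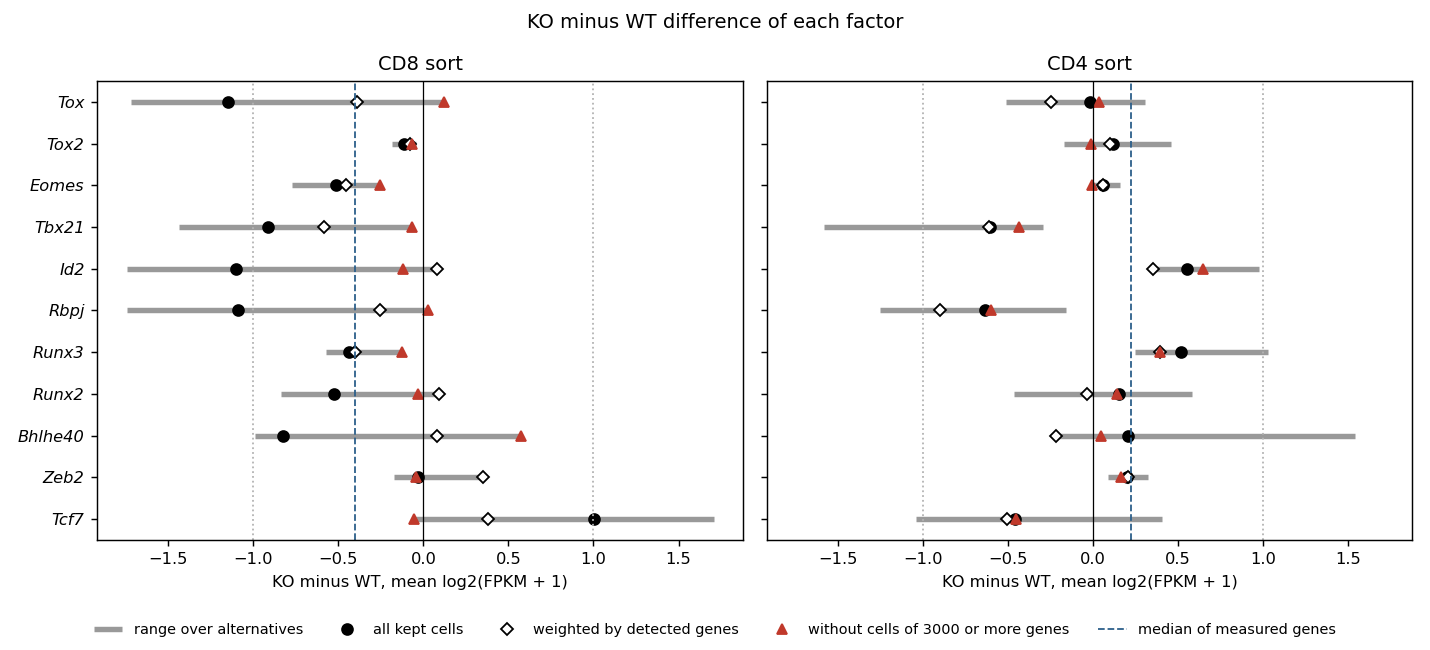
Difference in mean log2(FPKM + 1), KO minus WT, of the 10 factors and Tcf7 in the CD8 sort (left) and the CD4 sort (right): all kept cells (circles), cells weighted by detected genes (diamonds), without cells of 3000 or more genes (triangles) and the range over the alternatives (bars). Dashed lines mark the median of the measured genes, -0.40 and 0.23, and dotted lines a difference of 1. In the CD8 sort the triangles of Tox, Rbpj and Tcf7 lie near 0.

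Regulatory T cells, which carry Foxp3, made up part of the CD4 sort: Foxp3 was found in 35 of 89 KO and 46 of 85 WT cells. Tox was higher in cells with Foxp3 than in cells without, by 1.62 in KO and by 0.27 in WT cells, and so was Id2, by 2.18 in KO and 1.69 in WT cells. Tcf7 was lower in cells with Foxp3 by a difference of -3.45 in KO and -3.58 in WT cells. Cells with Foxp3 had more detected genes, a median of 2152 in KO and 1883.5 in WT cells, than cells without, at 1746.5 in KO and 1547 in WT cells. Bhlhe40 ran in opposite directions: among cells with Foxp3 its KO minus WT difference was -1.33, and among cells without Foxp3 it was 1.54. Among cells with Foxp3, Rbpj differed by -1.17, Tbx21 by -1.04 and Id2 by 1.10. Among cells without Foxp3, Rbpj differed by -0.16, Tbx21 by -0.29 and Id2 by 0.61. No background over all measured genes stands beside these differences, and both classes had more detected genes in KO than in WT cells.

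Tbx21, Runx3 and Eomes had higher means in the CD8 than in the CD4 sort in both genotypes. Tbx21 was higher in CD8 than in CD4 cells by 1.21 in KO and 1.51 in WT cells, and Runx3 by 0.87 in KO and 1.82 in WT cells. Eomes was higher by 0.40 in KO and 0.97 in WT cells. In KO cells, Tbx21 was past 1 upward (background 4.55%) and Bhlhe40, at -1.06, downward (background 8.24%). Tbx21, in 29.1% of KO CD8 and 15.7% of KO CD4 cells, met the limit for measured genes through the CD8 cells alone. Its place beside the background of 4.55% is therefore a description. In WT cells, Runx3, Tbx21 and Tox (1.15) were past 1 upward against a background of 23.4%, and no factor was past 1 downward (background 1.54%). Over all measured genes the median CD8 minus CD4 difference was -0.028 in KO and 0.53 in WT cells. Among cells with at least 2000 detected genes, Runx3 stood at -0.078 in KO and 1.52 in WT cells. Without cells of 3000 or more genes, Runx3 stood at 1.69 and Tbx21 at 0.87 in WT cells, and Tox at -0.031.

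Tbx21 and Eomes were set against each other in CD8 cells, as related factors that can act together or in different states. Both were found in 5 of 86 KO cells (5.81%, 1.91% to 13.05%) and 7 of 90 WT cells (7.78%, 3.18% to 15.4%). The product of the 2 shares was 3.38% in KO and 7.11% in WT cells, and both products lay inside the intervals of the measured shares. Tbx21 alone was in 20 KO and 29 WT cells, and Eomes alone in 5 KO and 9 WT cells. Pearson's r of log2(FPKM + 1) was 0.23 over 86 KO and 0.054 over 90 WT cells. After the number of detected genes was taken out it was 0.23 in KO and -0.036 in WT cells. Of the 7 WT cells with both, 5 had 3000 or more detected genes, and below that number both were in 5 of 83 KO and 2 of 69 WT cells.

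Tox and Tcf7, factors of the exhausted and the stem-like state, were both found in 8 of 86 KO cells (9.30%, 4.10% to 17.5%) and 11 of 90 WT cells (12.2%, 6.26% to 20.8%). The product of the shares was 12.1% in KO and 17.99% in WT cells. Tox without Tcf7 was in 8 KO cells (9.30%, 4.10% to 17.5%) and 20 WT cells (22.2%, 14.1% to 32.2%). Of those 20 WT cells, 18 had 3000 or more detected genes. Below 3000 genes, Tox without Tcf7 was in 7 of 83 KO cells (8.43%) and 2 of 69 WT cells (2.90%), and both were in 8 KO (9.64%) and 10 WT cells (14.5%). Thus most WT cells with Tox alone were cells with many genes. Most WT cells with Tox below that number also carried Tcf7, but Tcf7 was in 66.7% of all 69 WT cells there. Across cells r was -0.13 in KO and -0.32 in WT cells, and after the number of detected genes was taken out it was -0.14 in KO and -0.089 in WT cells.

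**Figure D5:**
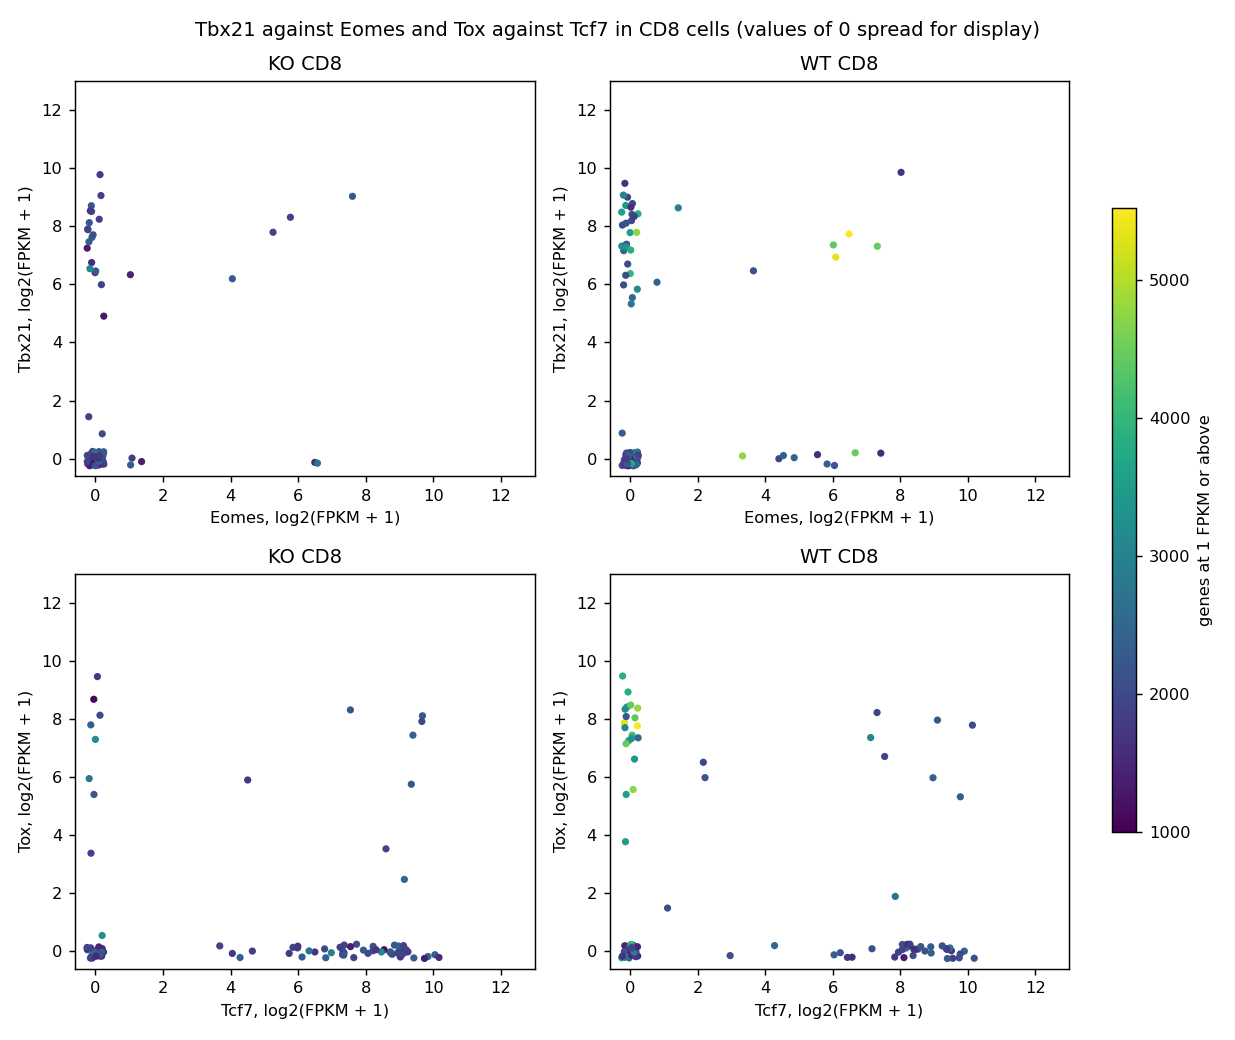
Tbx21 against Eomes (top) and Tox against Tcf7 (bottom) in KO CD8 (left) and WT CD8 cells (right), each point 1 cell on log2(FPKM + 1) axes, coloured by detected genes, with values of 0 spread for display. In WT cells, the 20 cells with Tox and no Tcf7 are mostly those with many detected genes, and in KO cells 8 cells have Tox alone and 8 have both.

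Cells with at least 2 of the 4 checkpoint receptor transcripts numbered 23 of 86 in KO CD8 and 39 of 90 in WT CD8 cells, with a median of 1984 detected genes in KO and 3024 in WT cells. Bhlhe40 was higher in them than in the remaining cells of the same group by 2.74 in KO and 4.93 in WT cells. Tox was higher by 1.20 in KO and 3.14 in WT cells, Tbx21 by 0.21 in KO and 3.25 in WT cells, and Rbpj by 0.34 in KO and 3.16 in WT cells. Tcf7 was lower, with differences of -3.39 in KO and -3.37 in WT cells. Below 3000 detected genes (21 of 83 KO and 19 of 69 WT cells), Bhlhe40 remained higher in cells with 2 or more checkpoint transcripts by 2.46 in KO and 2.93 in WT cells, Tbx21 by 0.50 in KO and 1.93 in WT cells, Tox by 1.01 in KO and 0.34 in WT cells, and Rbpj by 0.36 in KO and 0.97 in WT cells. In the same cells Tcf7 differed by -3.10 in KO and -1.56 in WT cells. Runx3, Runx2 and Zeb2 were also higher there in both genotypes, by 0.19 to 1.14. Id2 and Eomes were not: Id2 differed by 1.33 in KO and -0.36 in WT cells, and Eomes by 0.12 in KO and -0.23 in WT cells. Zeb2 was found in only 3 of 83 KO and 4 of 69 WT cells below 3000 genes. Over all kept cells weighted by detected genes, its difference between these classes was 0.48 in KO and -0.72 in WT cells.

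Factors were also read by how many of the 10 a cell carried. The mean number was 2.73 in KO CD8, 3.51 in WT CD8, 2.51 in KO CD4 and 2.33 in WT CD4 cells, and 5 or more were in 15.1% of KO CD8 (8.30% to 24.5%), 31.1% of WT CD8 (21.8% to 41.7%), 14.6% of KO CD4 and 10.6% of WT CD4 cells. Below 3000 genes the mean was 2.66 in KO CD8 and 2.54 in WT CD8 cells. Cells with more detected genes carried more factors, with r of 0.31 over KO CD8 and 0.78 over WT CD8 cells, which share library and depth. Between single factors, r after removing detected genes had a median of 0.090 over 15 pairs in KO CD8 and 0.095 over 21 pairs in WT CD8 cells. Bhlhe40 and Tcf7 had an r of -0.28 in KO CD8 and -0.46 in WT CD8 cells on the same measure, and Id2 and Bhlhe40 one of 0.28 in KO CD8 and 0.27 in WT CD8 cells.

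For factors found in at least 20% of the cells of both CD8 groups, the genes with the most similar pattern were sought among 2925 genes by the mean of r over the 2 groups, 86 KO and 90 WT cells, after removing detected genes. Bhlhe40 was most like Anxa2 (0.46), the granzyme gene Gzmb (0.43) and the chemokine receptor gene Cxcr6 (0.43). Id2 was most like the galectin gene Lgals1 (0.42), Cxcr6 (0.32) and the integrin gene Itgb1 (0.31). Its r with Cxcr6 was 0.067 in KO and 0.57 in WT cells, so that mean rests on the WT cells. For Tbx21 the highest values were Plek (0.27), the receptor gene Klrc1 (0.26) and Cxcr6 (0.26), the last with 0.13 in KO and 0.38 in WT cells. The best values for Rbpj (Uqcr10, 0.33), Runx3 (H2-T22, 0.28) and Runx2 (Glrx, 0.29) were of similar size. All of these values are low to moderate, and all share the depth of the same cells. The 99th percentile over the genes compared was 0.28 for Bhlhe40, 0.25 for Id2, 0.21 for Runx2, 0.20 for Tbx21, 0.19 for Rbpj and 0.18 for Runx3. Without cells of 3000 or more genes, r of Bhlhe40 with Gzmb was 0.46 in KO and 0.37 in WT cells. That of Id2 with Lgals1 was 0.48 in KO and 0.36 in WT cells. Rbpj with Uqcr10 stood at 0.47 in KO and 0.13 in WT cells, and Tbx21 with Plek at 0.36 and 0.16. The pairs were picked as the highest in largely the same cells, so these values are no separate support.

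Genes around the factors were read from lists by role, beside a background of 13.3% of measured genes lower and 0.555% higher in KO CD8 cells and a median of -0.40. Of 14 effector genes known as targets of T-bet, Eomes or RUNX3, 9 were measured in the CD8 sort. Of these, 3 were lower in KO cells by 1 or more and 0 higher. The median was -0.42 over the 14, including those not measured. The 3 were Prf1 (-3.02), Gzmb (-1.23) and the chemokine gene Ccl5 (-1.13). The other measured members were Il2rb (-0.96), Ifng (-0.88), Nkg7 (-0.67), Klrd1 (-0.56), Fasl (0.037) and Cxcr3 (0.64). Below 3000 detected genes Gzmb ran the other way, in 24.1% of 83 KO and 20.3% of 69 WT CD8 cells. Its mean log2(FPKM + 1) there was 2.31 in KO and 1.63 in WT cells. The list medians take in members under the 20% limit, and the background median of -0.40 does not. Of 8 checkpoint receptors, 6 were measured, and Lag3 (-1.79), Havcr2 (-1.60) and Pdcd1 (-1.41) were lower in KO CD8 cells. The median was -0.74 over the 8. Prf1, Ifng, Lag3 and Havcr2 met the 20% limit through the WT cells alone, so their places in these counts are a description. Of 14 other factors of activated and exhausted cells, the NFAT gene Nfatc1 (-1.06) and the nuclear receptor gene Nr4a2 (-1.02) were lower and none higher, with a median of -0.10. Of 8 Notch pathway genes around Rbpj, the coactivator gene Maml2 was higher in KO CD8 cells (1.09), and the Notch target Hes1 was detected in no cell. Of 10 naive, memory and stem-like factors, Tcf7 was the 1 past 1, and the median was 0.13. No member of the TOX, E protein and Id, Runx partner, ZEB and BHLHE lists was past 1 in either sort.

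In the CD4 sort, other members of the lists were past 1, beside a background of 9.91% of measured genes higher and 0.983% lower in KO cells and a median of 0.23. The immediate early factor gene Nr4a1 was higher in KO CD4 cells by 2.26, found in 69.7% of KO and 48.2% of WT cells, and the Ikaros family gene Ikzf3 was higher by 1.20. Its relative Ikzf2, a marker of regulatory T cells, differed by -1.28, and Foxp3 was in fewer of the KO cells, as given above. Of the effector targets, the receptor gene Klrg1 was higher by 1.28 and the granule protein gene Nkg7 lower, at -1.54. Lag3 was the 1 checkpoint receptor past 1, at -1.37, and all 8 had a lower mean in KO CD4 cells, as had 33.9% of the measured genes.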

How the data were processed

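The authors deposited 1 table of gene-level FPKM, normalized between cells by TMM per the file name and made with Bowtie and RSEM on mm10 per the submitters' processing notes, with no tool versions given in the sources used here. Per the labels' protocols, Smart-seq2 cDNA went through 21 PCR cycles before Nextera XT library preparation. The table has 23366 rows and 375 columns: 371 single cells, and 4 Population columns, which were not used. The 4 rows with repeated symbols were dropped. FPKM mixes transcript content with cDNA yield, and without molecular identifiers intervals cover counting error only. Read counts per cell were not used, so depth was read from the number of genes at 1 FPKM or above.

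Levels are means over cells of log2(FPKM + 1), which understates changes of low genes. A gene was measured in a comparison where at least 20% of cells of either group had 1 FPKM or above, and was counted as past the threshold at a difference of 1 or more in size. With 1 sample a group, no p-value was computed. A share of 0 carries the limit that 3 counts allow. Differences and the weighting by detected genes (bin edges 1000, 1500, 2000, 2500 and 3000) were tested on simulated data. The 3 genes most like a factor and up to 3 genes a list past the threshold were named. One such entry near Runx2, whose symbol reads as a date, was left unnamed. Members, lists and rules were chosen with earlier results of these data known. Promoters are RefSeq sequence of GRCm38.p6, and gene positions are from GENCODE M21. Tox and Bhlhe40 have no promoter shown. Python 3.11.15, pandas 2.3.3 and SciPy 1.17.1 were used.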

Additional observations from a re-analysis of the deposited data

Results flagged for a closer look

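For 7 of the 10 factors the KO minus WT difference in mean log2(FPKM + 1) was below 0 in the CD8 sort and above 0 in the CD4 sort. The difference between the sorts was not tested, since each group is 1 sample. Among the 3621 genes measured in both sorts, 51.1% had the same pair of signs. The CD8 difference less the CD4 difference was -1.66 for Id2, -1.03 for Bhlhe40, -0.96 for Runx3, -0.68 for Runx2, -0.58 for Eomes, -0.23 for Tox2 and -0.23 for Zeb2. Without cells of 3000 or more genes, Bhlhe40 was above 0 in both sorts (0.57 in CD8, 0.050 in CD4), and Tox2 (-0.068 in CD8, -0.010 in CD4) and Eomes (-0.26 in CD8, -0.0042 in CD4) were below 0 in both. With cells weighted by detected genes, the CD8 difference was 0.078 for Id2, 0.092 for Runx2, 0.082 for Bhlhe40 and 0.35 for Zeb2. Over the measured genes the medians were -0.40 in the CD8 sort and 0.23 in the CD4 sort. Tox2, Eomes and Zeb2 were each found in under 20% of the cells of every group.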

How the results depend on the processing

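The CD8 result depended on the cells with many detected genes. Without cells of 3000 or more genes, an alternative chosen after seeing the data, the median KO minus WT difference of the 10 factors in the CD8 sort was -0.055, 0 factors were past 1, Bhlhe40 (0.57), Tox (0.12), Rbpj (0.029) and Tcf7 (-0.056) changed sign, the WT CD8 minus CD4 median was -0.034, Tox there changed sign to -0.031, and Tbx21 with Eomes was in 2.90% of WT CD8 cells. With cells weighted by detected genes, the CD8 median was -0.17, 0 factors were past 1, Zeb2 (0.35), Runx2 (0.092), Bhlhe40 (0.082) and Id2 (0.078) changed sign, and the WT CD8 minus CD4 median was 0.14. With log2(FPKM + 10), 0 factors were past 1 in the CD8 sort and Zeb2 turned to 0.0070. In the CD4 sort, 3 were past 1 among cells with at least 2000 genes (Tbx21, Rbpj and Runx3), where Runx3 between the sorts in KO cells changed sign to -0.078, and 1, Bhlhe40, without cells with Foxp3, where Tcf7 in WT cells changed sign between sorts to -0.55. The share of measured genes past 1 in size was 13.8% in the CD8 sort and 1.81% to 32.6% over its alternatives, and 10.9% in the CD4 sort and 2.33% to 23.1%. Between sorts it was 12.8% in KO cells (3.67% to 27.9%) and 24.9% in WT cells (6.70% to 46.1%). For want of replicates, a median was taken as unmoved within 0.5, a share within its interval and a count within 1.5 times. By these limits 35 values of the factors' medians, 31 of the pair shares and 14 of the counts were unmoved, and 4, 1 and 5 moved. No paired analysis was possible because each group is 1 sample with the same number, and leaving out a replicate was not possible either. With 85 to 90 cells a group, a transcript found in 0 cells could still be in up to about 3.5% of cells by the limit of 3 counts.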
